A study of Mus musculus with 3 samples.

Results

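Across the immune cells of the mouse kidney, 10 genes that mark dendritic cells (DCs) were followed. They were Xcr1, Clec9a, Irf8, Batf3 and Naaa for type 1 conventional DCs (cDC1), Cd209a, Clec10a, Mgl2 and Irf4 for type 2 conventional DCs (cDC2), and Zbtb46 for both. They are 10 of the 32886 genes of the deposited table, were chosen by name as known identity genes and were all present. The choice was made with earlier results of these data known. The cortex, the inner medulla (IM) and the outer medulla (OM) were dissected from kidneys of untouched wild-type male C57BL/6J mice aged 10 weeks, CD45+ cells were sorted and profiled by droplet-based scRNA-seq, and this was done in an Aachen, a Bonn and a Hamburg dataset. A library here means all cells of a compartment in a dataset, and in Aachen this merges 2 barcode suffixes per compartment. These 9 libraries therefore came from healthy animals of 1 strain and sex, and they held 20266 cells in 23 clusters of the authors. Of these cells 303 were in the cluster cDC1 and 668 in cDC2. The dataset was used as the replicate (n = 3), and compartments were compared within datasets. The p-values therefore measure how alike the compartment differences were across these datasets. In the fits of all genes, the spread of a gene was estimated partly from the other genes. Those p-values thus do not rest on the agreement of 3 datasets alone. Nothing used here says how many animals went into a library, so the spread between animals was not measured.

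Conventional DCs take up antigen, process it and present it to T cells. cDC1 depend on the transcription factors IRF8 and BATF3, take up dead cells through the receptor CLEC9A and carry the chemokine receptor XCR1, through which they meet CD8+ T cells and NK cells. cDC2 depend more on IRF4, carry C-type lectins such as CD209A, CD301a (encoded by Clec10a) and CD301b (encoded by Mgl2), and present antigen mainly to CD4+ T cells, while the transcription factor ZBTB46 is shared by both subsets. The authors used Cd209a and Clec10a among the genes that named their DC clusters, so the levels of the members across clusters are given as a description with no test.

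Promoter sequences are shown for Cd209a and Xcr1, the genes most sharply split between the subsets, for Zbtb46, which both subsets share, and for Mgl2, the member that differed between compartments. They are the 250 bases before the start given by RefSeq (GRCm38.p6, the build of mm10), 5′ to 3′ on the strand of the gene, and 9 of the 10 members matched the table. Capitals mark the letters of a motif found on either strand.
Cd209a, chr8:3748985-3749234, minus strand: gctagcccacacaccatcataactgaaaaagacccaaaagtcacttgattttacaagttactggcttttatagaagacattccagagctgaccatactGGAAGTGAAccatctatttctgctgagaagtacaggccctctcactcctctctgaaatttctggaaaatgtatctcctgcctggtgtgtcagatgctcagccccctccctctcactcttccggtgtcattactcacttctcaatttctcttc
Zbtb46, chr2:181424389-181424638, minus strand: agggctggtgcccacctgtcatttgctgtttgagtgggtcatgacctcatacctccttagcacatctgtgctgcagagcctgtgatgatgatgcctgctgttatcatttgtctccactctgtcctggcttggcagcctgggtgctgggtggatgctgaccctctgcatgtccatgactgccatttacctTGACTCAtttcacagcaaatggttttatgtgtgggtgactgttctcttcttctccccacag
Xcr1, chr9:123862030-123862279, minus strand: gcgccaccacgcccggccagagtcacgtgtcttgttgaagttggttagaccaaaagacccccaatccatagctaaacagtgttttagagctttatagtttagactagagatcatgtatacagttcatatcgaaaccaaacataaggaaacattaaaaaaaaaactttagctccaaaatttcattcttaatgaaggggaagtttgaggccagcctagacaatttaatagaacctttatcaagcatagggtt
Mgl2, chr11:70130107-70130356, plus strand: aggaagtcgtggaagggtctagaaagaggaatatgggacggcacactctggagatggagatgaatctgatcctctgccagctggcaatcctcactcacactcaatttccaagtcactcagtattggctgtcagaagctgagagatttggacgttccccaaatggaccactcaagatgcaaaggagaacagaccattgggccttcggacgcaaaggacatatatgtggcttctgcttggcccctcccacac

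The Cd209a promoter held the letters GGAAGTGAA at 152 bases before the start, a match to the core GGAANNGAA of sites bound by ETS and IRF factors together, which 6.99% of all 32851 promoters hold. The Zbtb46 window lies inside the annotated gene, whose 5′ end on the minus strand is at chr2:181459426. The start used for Zbtb46 is thus not the 5′ end of the gene. Its window held TGACTCA at 61 bases before that start, a match to the AP-1 and BATF core TGANTCA that 6.75% of promoters hold. No match to these motifs, to the IRF core GAAANNGAA (7.13% of promoters) or to the PU.1 core GAGGAAG (10.6%) was found in the windows of Xcr1 and Mgl2, nor in those of Clec9a, Irf8, Naaa and Irf4. In Batf3 a PU.1 core lay 153 bases before the start, in a window inside the annotated gene with 163 bases in exons. Annotated exons also cover 28 bases of the Mgl2 window and 7 of the Irf4 window. A match is a run of letters and was not tested as a binding site.

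In the GENCODE M21 annotation of the same build, Xcr1 spans chr9:123852315-123862029, Cd209a chr8:3743397-3748984 and Zbtb46 chr2:181387762-181459426, each on the minus strand. Mgl2 (chr11:70130329-70137550) and Clec10a (chr11:70156197-70170834) are neighbours on the plus strand, 18646 bases apart. Their transcripts share a run of 183 bases, and 109 of the 2242 windows of 91 bases in Clec10a are also found in Mgl2. In the last 500 bases, where 3′ libraries take most reads, the longest shared run was 10 bases. How the authors' counting treated such reads is not given in the sources used here, so a small exchange of UMIs between both genes is possible.

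Libraries held 2122809 to 15267126 UMIs, with a median of 744 to 1270 UMIs per cell in Aachen, 3210 to 3505 in Bonn and 2802 to 3067 in Hamburg. Aachen and Bonn values were whole numbers, while 0.118% of the nonzero Hamburg values were whole. Of 36 pairs of libraries 31 shared at least 1 cell barcode, with at most 16 shared barcodes in a pair. The summed level of 12 further cDC1 genes such as Cadm1 and Tlr3 had a median of 39.8 UMIs per 10000 in the cDC1 libraries and of 6.17 in the cDC2 libraries, and that of 12 further cDC2 genes such as Sirpa was 5.38 and 26.1. The latter list parts cDC2 from cDC1 but not from other myeloid cells, since it stood at 42.05 in resident macrophages and 24.3 in monocytes. Markers of macrophages summed to 3.19 to 18.6 UMIs per 10000 in cDC1 and 1.08 to 24.1 in cDC2, against 211 to 409 in resident macrophages, so both DC clusters held a low level of them.

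Levels of the cDC1 genes were read first, as UMIs per 1000000 (CPM) of all cells of a cluster in a dataset. Xcr1 was nearly confined to cDC1: it stood at 279 CPM in Aachen, 414 in Bonn and 315 in Hamburg, and at 3.21, 1.497 and 1.91 CPM in cDC2. The cluster next in order, Malat+_T_cell, had 10.9 CPM on average, below every cDC1 value. That average came from 1 cell in Bonn and 1 in Hamburg, with 0 in Aachen, so this place in the order is weak. cDC1 are a small share of the cells, yet they held 86.2% ± 3.90 (SD, n = 3) of all Xcr1 UMIs. A UMI of Xcr1 was seen in 55.4, 92.1 and 69.6% of cDC1 cells, and in 0.325, 0.312 and 0.382% of T cells, which do not use the gene. The cDC1 cells were deeper (median 3469, 11738 and 9188 UMIs) than the T cells (973, 3274 and 3396). After each cell was thinned to 500 UMIs, Xcr1 was still seen in 14.1% ± 3.06 of cDC1 cells (SD, n = 3) and in 0 of 663 thinned cDC2 cells, which allows a share of up to 0.452%.

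Clec9a, the receptor for dead cells, was broader. It had 93.0, 389 and 320 CPM in cDC1, and the Aachen value was below the other two. pDCs (plasmacytoid DCs, 99 cells, of which Aachen had 9 and was left out of their averages) had 175 CPM in Bonn and 105 in Hamburg, and resident macrophages had 9.91, 47.4 and 48.0. Macrophages outnumber cDC1, and so they held 35.9% ± 9.75 of the Clec9a UMIs against 44.5% ± 8.73 in cDC1 (SD, n = 3). T cells had at most 1.65 CPM, so the macrophage level was above that of a type that lacks the gene.

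Irf8, which encodes the factor that cDC1 and pDCs need, was highest in pDCs, at 3390 CPM in Bonn and 2611 in Hamburg, and was seen in 100% of those cells. cDC1 came next with 1637, 2010 and 1302 CPM, below both pDC values, although the 9 Aachen pDCs (56 Irf8 UMIs, 1793 CPM) lay within the cDC1 range. NK_cell_1 (768 CPM ± 150) and B_cell_2 (384 ± 20.01) stood above resident macrophages (277) and cDC2, where Irf8 had 174, 89.3 and 160 CPM. cDC1 and resident macrophages held 23.6 and 27.6% of all Irf8 UMIs, and B cells 14.5%.

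Batf3, the partner of IRF8 in cDC1, was the least specific of the cDC1 genes. It had 218, 227 and 159 CPM in cDC1 and 96.4, 138 and 56.7 in cDC2, with Macrophage_2 at 93.8 ± 8.49 (SD, n = 3), and the ranges of cDC2 and Macrophage_2 overlapped. Resident macrophages held 51.6% of its UMIs. Naaa, a lysosomal amidase, was clearer: 840, 1223 and 851 CPM in cDC1 against 57.8, 137 and 66.5 in cDC2, with Isg+_Macrophage next to cDC1 at 125 ± 12.5. cDC1 held 52.8% of the Naaa UMIs.

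Among the cDC2 genes, Cd209a was the sharpest. It had 1263, 1994 and 1234 CPM in cDC2 and 26.2, 4.75 and 34.1 in cDC1, and cDC2 held 77.2% of its UMIs. pDCs had 838 and 265 CPM in Bonn and Hamburg, proliferating cells (Prolif._cell) 193 ± 214 and monocytes 121 ± 37.4 (SD, n = 3). A Cd209a UMI was found in 64.7, 87.8 and 68.2% of cDC2 cells, and in 0.130, 0.187 and 0.813% of T cells. Thinned to 500 UMIs, the shares were 42.4% ± 9.50 in cDC2 and 1.98% ± 0.79 in cDC1.

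Clec10a followed Cd209a at a lower level, with 212, 454 and 315 CPM in cDC2 and 0, 0 and 7.46 in cDC1, where 0 UMIs allow up to 8.72 CPM in Aachen and 3.56 in Bonn. In pDCs it reached 343 CPM in Bonn and 205 in Hamburg, each below the cDC2 value of the same dataset. All other clusters were below, the next being Macrophage_3 with 33.6 ± 2.51 (SD, n = 3). cDC2 held 60.6% of the Clec10a UMIs.

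Mgl2, the neighbour of Clec10a, was mostly a macrophage transcript in these kidneys. Macrophage_3 had 1150 CPM ± 158 and resident macrophages as a whole 717 ± 155 (SD, n = 3). cDC2 had 235 CPM in Aachen, 526 in Bonn and 253 in Hamburg, below the 5 macrophage clusters in the mean, although the cDC2 range overlapped those of Macrophage_2, Isg+_Macrophage and Malat+_Macrophage. cDC1 had 2.91, 16.6 and 10.3 CPM. Resident macrophages thus held 78.5% of all Mgl2 UMIs and cDC2 held 9.32%. T cells of Aachen had 48.3 CPM against 4.02 and 3.07 in Bonn and Hamburg, so the Aachen background was the highest for this gene.

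Irf4 was mainly a B cell transcript, with 184 CPM ± 135 in B cells and 54.5 ± 22.7 in cDC2 (SD, n = 3). cDC2 stood at 32.1, 53.9 and 77.6 CPM, cDC1 at 0 (which allows up to 8.72), 1.19 and 6.97, and the ranges of B cells and cDC2 overlapped. B cells held 56.7% of the Irf4 UMIs, T cells 19.7% and cDC2 7.30%. Zbtb46 was highest in the conventional DCs: 23.3, 94.96 and 87.8 CPM in cDC1 and 12.9, 59.4 and 75.8 in cDC2, ranges that overlapped, followed by proliferating cells at 6.86 ± 6.11. cDC1 held 37.6% and cDC2 37.2% of its UMIs. Its level was lowest in Aachen in both subsets, where cells were shallowest. In pDCs, 1 of 99 cells held a Zbtb46 UMI.

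**Figure D1:**
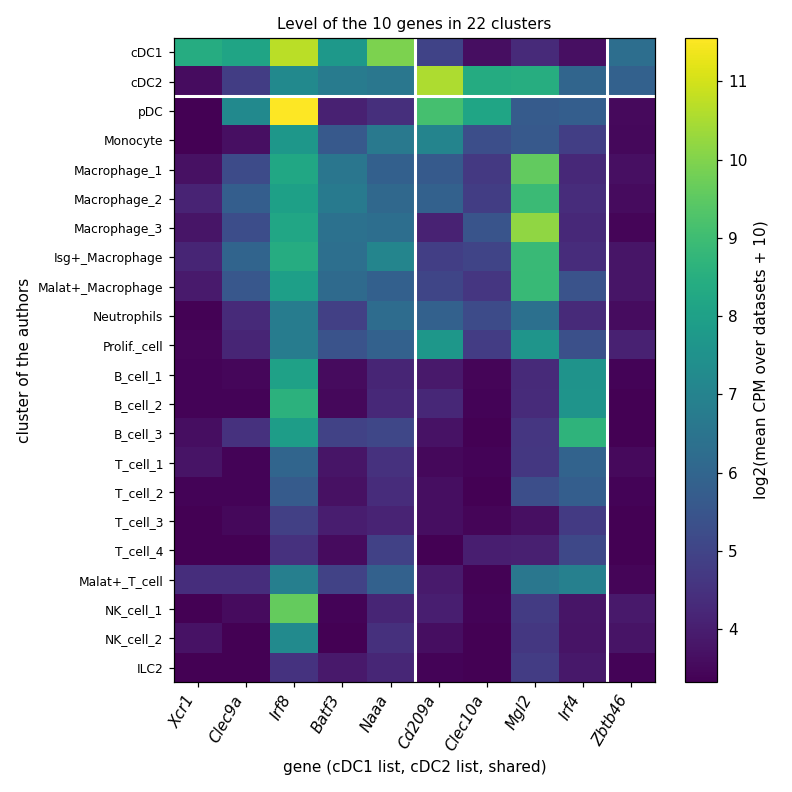
Colour gives log2 of the mean CPM over datasets plus 10 for the 10 genes (columns, cDC1 list, cDC2 list and the shared gene divided by white lines) in 22 named clusters (rows). Xcr1 and Naaa are bright in cDC1, Cd209a in cDC2 and pDC, Mgl2 in the macrophage clusters, Irf4 in the B cell clusters, and Zbtb46 stands out only in cDC1 and cDC2.

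Set side by side within each dataset, the lists split the subsets. The log2 ratio of cDC1 over cDC2 (CPM plus 10) was 4.81 ± 0.38 for Xcr1, 3.49 ± 0.75 for Irf8, 3.40 ± 0.30 for Naaa, 3.21 ± 0.37 for Clec9a and 1.04 ± 0.33 for Batf3 (SD, n = 3). The cDC2 genes lay on the other side, at −5.68 ± 1.23 for Cd209a, −4.74 ± 0.70 for Clec10a, −4.09 ± 0.35 for Mgl2 and −2.32 ± 0.22 for Irf4. All 9 genes had the sign of their list in 3 of 3 datasets, and 8 of 9 after the cells were thinned to 500 UMIs, where Irf4 had a log2 ratio of 0 in Aachen and −0.62 ± 0.54 on average (SD, n = 3). Batf3 was the weakest of the cDC1 genes, with 1.10, 0.68 and 1.34 in Aachen, Bonn and Hamburg. Zbtb46 was close to even at 0.44 ± 0.22, and after thinning the cells to 500 UMIs it was −0.98 ± 0.93. The gene had 523 UMIs in all cells before thinning. The thinned ratio thus rests on few UMIs, and the order of Zbtb46 between the subsets was not settled.

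**Figure D2:**
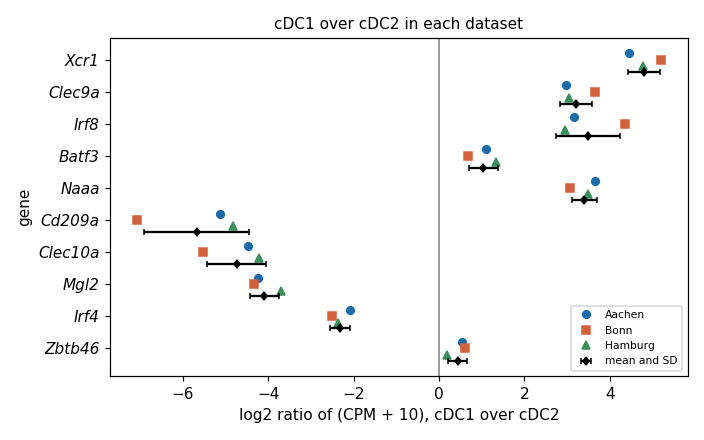
Each coloured point is the log2 ratio of CPM plus 10 in cDC1 over cDC2 in 1 dataset, and the black diamond with its bar is the mean and SD of 3 datasets, for the gene on the vertical axis. The 5 cDC1 genes lie to the right of 0 and the 4 cDC2 genes to the left in every dataset, with Batf3 and Zbtb46 nearest to 0.

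In single cells the genes of a list were found together in a share that differed widely between datasets. Of 303 cDC1 cells, 168 held both Xcr1 and Clec9a, and 17 of the 19963 other cells did, among them 9 Macrophage_2 and 3 cDC2 cells. The share of cDC1 cells with both was 22.8% in Aachen, 85.5% in Bonn and 60.7% in Hamburg. Cd209a and Clec10a were both found in 310 of 668 cDC2 cells (18.3, 70.2 and 41.5% in Aachen, Bonn and Hamburg) and in 47 of 99 pDCs. Genes of opposite lists also met. Xcr1 and Cd209a shared 3 of 303 cDC1 cells and 6 of 668 cDC2 cells. Clec9a and Clec10a shared 36 of 99 pDCs (0, 27 and 9 cells in Aachen, Bonn and Hamburg). Clec9a and Mgl2 shared 324 of 5367 resident macrophages (13, 219 and 92 cells). Irf4 and Irf8, the factors tied to cDC2 and cDC1, shared 40 of 668 cDC2 cells, where 126 cells held Irf4 alone and 101 Irf8 alone. Detection rises with the depth of a cell, and cells in which no UMI was seen may still express the gene.

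For each member the genes with the most similar profile over the 22 clusters were listed (Pearson r of log2 CPM plus 10, averaged over datasets, among 8782 genes, a description in which the clusters share libraries). Xcr1 was closest to Tlr3 (r = 0.918), which encodes an endosomal receptor for double-stranded RNA, then Anpep (0.868) and Xlr (0.866). Cd209a and Clec10a were each other's closest gene (0.909). Clec9a was closest to Fmnl2 (0.947), Irf8 to BC035044 (0.854), Batf3 to Pak1 (0.981) and Naaa to Lsr (0.892). Outside the DC pattern, Mgl2 was closest to Dab2 (0.954) and Zmynd15 (0.952), and Irf4 to Cd79a (0.889), the signalling chain of the B cell receptor. Zbtb46 was closest to Ece1 (0.928).

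The study compared compartments, and the balance of both subsets differed between them. cDC1 made up 66.2, 40.3 and 55.8% of the conventional DCs in the cortex of Aachen, Bonn and Hamburg. In the OM the share was 20.6, 14.9 and 26.6%, and in the IM 35.9, 10.2 and 24.2%. Each medullary library was below the cortex library of its dataset, and every one was below all 3 cortex values. The means were 54.1% ± 13.02 for cortex, 20.7% ± 5.86 for OM and 23.4% ± 12.9 for IM (SD, n = 3). The mean of OM and IM was 37.9, 27.8 and 30.4 percentage points below cortex, on average −32.0 ± 5.27 percentage points, with p = 0.037 in a two-sided exact permutation test within datasets, the smallest p that the 27 arrangements allow. Counting error was moderate, since the smallest denominators were 47 cells (Bonn OM, 95% exact Clopper-Pearson interval 6.20 to 28.3%) and 65 cells (Aachen cortex, 53.4 to 77.4%).

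**Figure D3:**
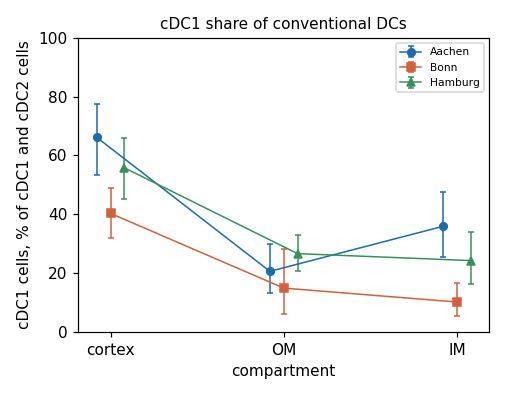
Points are the cDC1 cells as a percentage of cDC1 and cDC2 cells in each library, with bars for the 95% exact binomial interval (counting error only), against the compartment. The cortex points (40.3 to 66.2%) lie above all OM and IM points (10.2 to 35.9%).

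Within cDC1, no member passed the test between compartments. Of the 10 genes 6 passed the filter on low counts and 0 were called by edgeR's quasi-likelihood test (adjusted p under 0.05), against 0.0634% of all 3154 genes tested. None had an unadjusted p under 0.05, and DESeq2 called none. Xcr1 had 387 and 391 CPM (scaled by TMM) in the Aachen and Bonn cortex and 391 in the Hamburg cortex. In the medulla its Aachen libraries had 314 (OM) and 272 (IM), its Hamburg libraries 276 and 306, and the Bonn IM 544, so the direction was not shared, and the log2 fold change was −0.19 ± 0.20 (SE, adjusted p = 1). The 6 fold changes ran from −0.19 to 0.13 with a median of −0.06 (all genes −0.03). Cd209a, Clec10a, Mgl2 and Irf4 were too low to be tested in cDC1. The Bonn OM library had 7 cDC1 cells and was left out of this fit. Markers of macrophages moved in cDC1: 3 of 5 tested (C1qa, C1qb and Apoe) rose in IM against cortex, and their sum was 4.37 to 18.6 UMIs per 10000 in IM and 3.19 to 7.44 in cortex. Of the 12 further cDC1 genes, all tested, 0 were called and 0 had an unadjusted p under 0.05.

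In cDC2, Mgl2 was higher in the medulla. It stood at 124 CPM in the cortex of Aachen, 334 in Bonn and 94.2 in Hamburg (8, 264 and 25 UMIs). The OM had 484, 600.1 and 290 CPM and the IM 186, 659 and 276. Within each dataset both medullary libraries lay above the cortex, while across datasets the groups overlapped because the Bonn cortex was above the medulla of Hamburg. The log2 fold change of Mgl2 was 1.19 ± 0.22 (SE, edgeR quasi-likelihood adjusted p = 0.0155), higher in 3 of 3 datasets with differences of 1.24, 0.91 and 1.54. DESeq2 gave 1.24 with an adjusted p of 0.034. Against cortex the OM alone gave 1.32 ± 0.25 (adjusted p = 0.0229) and the IM alone 1.07 ± 0.24 (adjusted p = 0.0783), so the latter missed the threshold. Mgl2 was 1 of 8 members tested and the only one called, against 0.304% of all 4935 genes in medulla against cortex and 0.101% in OM against cortex. The call was lost in 4 of 10 alternatives: with no replicate block (adjusted p = 1), without Hamburg (0.399), with cells thinned to 500 UMIs (0.41) and without cells holding lymphocyte markers (0.0912), with log2 fold changes of 1.06 or more.

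Macrophages hold most Mgl2, so their markers were read in the same cDC2 libraries. The 9 macrophage markers summed to 9.39 to 18.7 UMIs per 10000 in cortex, 1.08 to 24.1 in OM and 7.59 to 13.5 in IM. In the Aachen cortex and OM their sum was 18.65 and 24.1, in the Bonn libraries 17.7 and 1.08, and in those of Hamburg 9.39 and 9.86, so it did not move alike in the datasets. Of the 8 tested none rose and 1 fell, Fcgr1 (−1.62 ± 0.34, adjusted p = 0.0349), and their median was −0.66. Among cDC2 cells with fewer than 10, 5 or 3 macrophage marker UMIs (598, 568 and 542 of 668 cells), Mgl2 was higher in medulla by 1.52, 1.32 and 1.64 on the log2 scale (3 of 3 datasets, exact permutation p = 0.037 each, the smallest possible). The Aachen cortex then rested on 4, 4 and 2 Mgl2 UMIs. This split of cells was added after seeing the data. A fixed number of UMIs is also a looser cut in shallow cells, such as those of Aachen. Markers of neutrophils and tubules also moved in cDC2: S100a8 fell by 3.603 and S100a9 by 4.25 (adjusted p = 0.000125 and 2.16e-06), and Fxyd2 of the nephron rose by 2.97 (adjusted p = 0.0184). Neutrophil markers came from Hamburg, with 8.71 UMIs per 10000 in cortex, 4.20 in OM and 0.115 in IM, against 0 in each Aachen library and at most 0.105 in Bonn. In Aachen T cells, macrophage markers summed to 12.8 UMIs per 10000 in cortex, 34.9 in OM and 30.5 in IM. In Aachen B cells they summed to 6.62, 28.2 and 16.4. In Bonn and Hamburg they summed to 0.474 to 1.79 in T cells and 4.43 to 7.90 in B cells. The part of macrophage, neutrophil and nephron RNA in the Mgl2 difference was not tested.

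The other members did not pass the threshold in cDC2. Clec10a had 202, 416 and 218 CPM in the cortex, 326, 494 and 367 in the OM and 232, 466 and 271 in the IM of Aachen, Bonn and Hamburg. Each medullary library was above its cortex, and the log2 fold change was 0.37 ± 0.17 (SE, adjusted p = 0.967). Irf4 had 31.1, 35.4 and 49.0 CPM in cortex, 49.4, 70.6 and 75.9 in OM and 34.9, 63.3 and 94.9 in IM, again with each medullary library above its cortex, and 0.81 ± 0.25 (adjusted p = 0.418). Irf8 had a negative fold change, −0.68 ± 0.29 (adjusted p = 0.877). Its CPM were 202, 149 and 181 in cortex, 119, 80.2 and 127 in OM and 337, 39.3 and 199 in IM, so the OM lay below cortex in 3 of 3 datasets and the IM only in Bonn. These 3 genes and Mgl2 had an unadjusted p under 0.05. Cd209a gave 0.14 ± 0.15, Zbtb46 0.46 ± 0.25, Batf3 0.18 ± 0.25 and Naaa 0.19 ± 0.26, and the median of the 8 genes was 0.28 (all genes 0.01). Xcr1 and Clec9a were too low in cDC2 to be tested.

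Of other DC genes in cDC2, 1 of 11 tested cDC2 genes fell, Cd7 (−1.22 ± 0.23, adjusted p = 0.0184), which encodes a surface glycoprotein of lymphoid cells. In the paper Cd7 is a marker of cDC2 that few renal conventional DCs express. The paper proposes that many of these cells are cDC3, a subset from monocyte-DC progenitors. Here the cluster name of the authors was kept. None of 9 genes shared by the conventional DCs, such as Flt3 and the MHC class II genes, passed the test, nor did any of 6 cDC1 genes. Of 7 tested genes of migratory DCs 0 passed in medulla against cortex, and 3 had an unadjusted p under 0.05. Between the medullary compartments 1 of the 7 was called, Fscn1, which encodes the actin-bundling protein fascin, lower in OM than in IM (−1.61 ± 0.31, adjusted p = 0.0192).

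**Figure D4:**
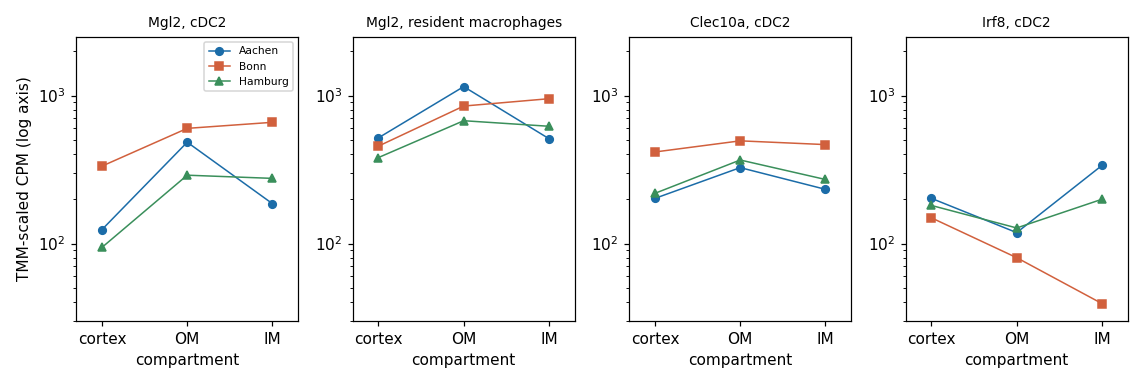
TMM-scaled CPM (log axis) of Mgl2 in cDC2 and in resident macrophages and of Clec10a and Irf8 in cDC2, by compartment, with 1 line per dataset and 1 library per point. In cDC2 Mgl2 rises from cortex to OM and IM in each dataset (94.2 to 334 CPM in cortex, 186 to 659 in the medulla), while Irf8 is lower in OM than in cortex in each dataset and spreads out in IM.

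In resident macrophages (Macrophage_1, Macrophage_2, Macrophage_3 and Isg+_Macrophage, 5367 cells), Mgl2 was called as well. It had 518, 455 and 381 CPM in the cortex of Aachen, Bonn and Hamburg, 1149, 849 and 676 in the OM and 511, 952 and 620.0 in the IM. Of the 6 medullary libraries, the Aachen IM alone was not above its cortex. The log2 fold change of medulla against cortex was 0.81 ± 0.18 (SE, adjusted p = 0.0447), positive in 3 of 3 datasets, with 0.98 ± 0.20 for OM (adjusted p = 0.0392) and 0.63 for IM (adjusted p = 0.351). Mgl2 was the 1 member called of 8 tested, beside 1.24% of all 8687 genes in medulla against cortex and 0.852% in OM against cortex. The call was also lost in 4 of 10 alternatives, each time with the same direction: with no replicate block (adjusted p = 1), without Bonn (0.0732), without Hamburg (0.413) and without the Bonn cortex library (0.24).

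The makeup of the macrophages by cluster went along with this, a share that was not tested. Macrophage_3, which has the most Mgl2, was 0, 7.05 and 0% of the cortical macrophages in Aachen, Bonn and Hamburg, 44.7, 42.9 and 23% of those in OM, and 1.17, 43.1 and 15.4% of those in IM (0 cells allow up to 0.605% in the Aachen cortex and 1.29% in the Hamburg cortex). In the Bonn cortex 83.3% were Macrophage_2. Within Macrophage_1, Mgl2 was still higher in the medulla by 0.69 ± 0.06 on the log2 scale (SD, n = 3, exact permutation p = 0.037, 0.074 adjusted over 6 tests), and within Isg+_Macrophage by 1.5 ± 0.94 (p = 0.037 by exact permutation, adjusted 0.074). The Aachen cortex value of Isg+_Macrophage rested on 3 Mgl2 UMIs in 26 cells. Within Macrophage_2 the difference was 0.05 ± 0.23 (SD, n = 3, exact permutation p = 0.704). Macrophage_3 had cortical cells in Bonn alone, with 795 CPM in cortex, 1290 in OM and 1266 in IM. The difference between clusters was not tested.

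Clec10a, the lectin gene next to Mgl2, was low in macrophages: 3.42, 14.7 and 12.5 CPM in the cortex of Aachen, Bonn and Hamburg, 30.9, 24.7 and 21.95 in OM and 9.33, 26.8 and 19.7 in IM. Every medullary library was above its cortex, and the log2 fold change was 1.02 ± 0.29 (SE, adjusted p = 0.133). The remaining 6 tested members ran from −0.34 (Clec9a) to 0.10 (Irf8), none called, and the median of the 8 was −0.06 (all genes 0.01). Among other genes of the conventional DCs in macrophages, 2 of 7 fell, the integrin gene Itgax (−1.46 ± 0.26, adjusted p = 0.0176) and the dipeptidyl peptidase gene Dpp4 (−1.05 ± 0.23, adjusted p = 0.0385). B cell markers fell beside them, Igkc by 1.99 (adjusted p = 0.0167) and Cd79b by 0.79 (adjusted p = 0.0232), and the nephron markers Kap and Fxyd2 rose by 3.01 and 3.89 (adjusted p = 0.0174 and 0.00737). The 6 B cell markers summed to 1.08 to 6.79 UMIs per 10000 in cortex and 0.64 to 2.35 in the medulla, and the nephron markers to 0.24 to 0.44 and 0.68 to 7.86. Their part in these differences was not tested.

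The compartment effect of a member was then compared between cDC2 and resident macrophages of the same libraries, as an interaction in edgeR. Of 9 members tested 0 were called, against 0.817% of all 8566 genes, 3 had an unadjusted p under 0.05, and DESeq2 called 0. For Mgl2 the effect in cDC2 exceeded that in macrophages by a log2 of 0.33 ± 0.42 (SE, adjusted p = 0.994), so the effects were not told apart. For Irf8 the difference was −0.82 ± 0.25 (adjusted p = 0.111), for Irf4 1.06 ± 0.43 (adjusted p = 0.488) and for Clec10a −0.64 ± 0.29 (adjusted p = 0.613). Without cells holding lymphocyte markers the Irf8 difference was −0.96 with an adjusted p of 0.00771.

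In monocytes 7 members were tested and 0 called, against 0.332% of 6029 genes, and none had an unadjusted p under 0.05 or was called by DESeq2. Cd209a, the most variable of them, had 70.6, 148 and 46.4 CPM in the cortex of Aachen, Bonn and Hamburg, 247, 40.3 and 142 in OM and 246, 48.3 and 36.9 in IM, so it was higher in OM in Aachen and Hamburg and lower in Bonn. The Aachen values rest on few cells, since 3 of 89 Aachen monocytes held a Cd209a UMI. Of the other cDC1 genes, Ifi205, an interferon-inducible gene, fell in medullary monocytes (−1.80 ± 0.33, adjusted p = 0.000183).

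In B cells 5 members were tested and 0 called, against 0.0898% of 8911 genes. DESeq2 called none. Irf4, which B cells use for class switching and plasma cell formation, had 141, 124 and 311 CPM in the cortex of Aachen, Bonn and Hamburg, 41.2, 199.9 and 295 in OM and 102, 133 and 288 in IM, with a log2 fold change of −0.00 ± 0.21 (SE, adjusted p = 1). Mgl2 was at 11.2, 0.53 and 3.17 CPM in cortex, 63.7, 0 and 7.04 in OM and 3.93, 9.61 and 4.56 in IM, a level like that of the T cells, and had the only unadjusted p under 0.05 (log2 fold change 2.11 ± 0.82, adjusted p = 1).

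**Figure D5:**
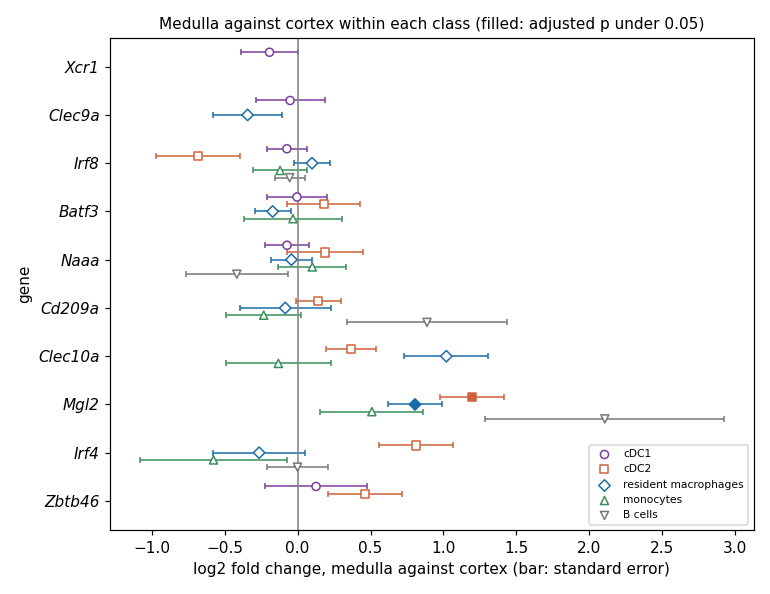
Points are the log2 fold change of the medulla (OM and IM averaged) against cortex from edgeR with bars for its SE, for each member (vertical axis) in 5 cell classes (symbols), and filled symbols have an adjusted p under 0.05. Only Mgl2 in cDC2 (1.19) and in resident macrophages (0.81) is filled.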

How the data were processed

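The members and gene lists were chosen with earlier results of these data known. CD45+ kidney cells were profiled by droplet-based scRNA-seq in 9 libraries. Reads were mapped by the authors with Cell Ranger (mm10). Cells of 200 to 4000 genes passed their filter if mitochondrial UMIs made up no more than 20%, and Seurat served for integration and clustering. The values deposited by the authors are raw UMIs per gene and cell without scaling, taken here for estimated counts because the Hamburg values are not whole. Here UMIs were summed per library and class (classes follow the authors' clusters; at least 10 cells per library), rounded, filtered with filterByExpr, scaled by TMM and tested on all genes by edgeR 4.0.16 under R 4.3.3 (glmQLFit, glmQLFTest) with the dataset as block and Benjamini-Hochberg adjustment at 0.05. DESeq2 1.42.0 was the alternative. Levels per cluster are CPM without TMM. Within a dataset the centred library profiles correlated at 0.43 to 0.93 (9 pairs in each of 5 classes) and between datasets at −0.78 to 0.37, so libraries were paired by the dataset named in the deposited table. Exact permutation tests used Python 3.11.15 and scipy 1.17.1. Doublets were not called; cells with at least 2 UMIs of lymphocyte markers were left out as an alternative. Tested on simulated data, edgeR recovered 51% of genes changed 2-fold in cDC1 (3154 genes), 59% in cDC2 (4935 genes) and 70% in resident macrophages (8687 genes), and 93, 93 and 98% at 4-fold. The named genes are all 10 members, at most 6 called genes of the other lists per contrast, and the 3 genes most similar to each member, of which not all are reported here. Intervals cover counting error only.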

Additional observations from a re-analysis of the deposited data

Results flagged for a closer look

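Irf4 had values of opposite sign in 2 cell classes. In cDC2 the log2 fold change of medulla against cortex was 0.81 ± 0.25 (SE), with differences of 0.37, 0.84 and 0.74 in Aachen, Bonn and Hamburg, and in monocytes it was −0.58 ± 0.51, with −1.70, −0.77 and −0.64. It was marked because every dataset of cDC2 was higher and every dataset of monocytes lower. The Aachen monocytes held 2, 1 and 0 Irf4 UMIs in cortex, OM and IM. Neither value passed the threshold (edgeR quasi-likelihood adjusted p = 0.418 and 0.999), and the difference between both classes was not tested.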

How the results depend on the processing

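The fits used 9 libraries (8 in cDC1, with 2 of OM), and on simulated data part of the 2-fold changes were missed in each class. With no replicate block, members called fell from 1 to 0 in cDC2 and from 1 to 0 in resident macrophages (Mgl2 adjusted p = 1 in both). In cDC2 it was also 0 when cells were thinned to 500 UMIs (3 members tested, Mgl2 adjusted p = 0.41) and without cells holding lymphocyte markers (0.0912), and 0 to 1 when a replicate was left out. In resident macrophages it was 0 to 1 when a replicate was left out, 0 without the Bonn cortex library, and 2 with no filter on low counts (Mgl2 and Clec10a, adjusted p = 0.00292). In B cells no filter gave 1 (Mgl2), and the interaction gave 1 (Irf8) without cells holding lymphocyte markers. Over 10 alternatives Mgl2 kept its direction, from 1.06 to 1.53 on the log2 scale in cDC2 (6 called, adjusted p 1.32e-05 to 1) and from 0.70 to 0.86 in macrophages (6 called, 8.06e-06 to 1). The cDC1 share of conventional DCs was −29.1 to −34.1 percentage points with a replicate left out, where p = 0.111 is the smallest an exact permutation allows. Zbtb46 turned to −0.98 in cDC1 over cDC2 after thinning, a value that rests on few UMIs. Of 553 values computed under alternatives, 458 kept their call or moved by less than the error. The replicate block changed no other call. Thinned monocytes could not be fitted. Mgl2 within macrophage clusters and in cDC2 cells with few macrophage UMIs were added after seeing the data.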

Other observations

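pDCs shared genes of both lists. Besides Irf8 they held Clec9a in 47 of 99 cells (0 of 9 in Aachen, 32 of 48 in Bonn and 15 of 42 in Hamburg). They held Cd209a and Clec10a together in 47 of 99 (3, 30 and 14 cells). Of the 48 Bonn pDCs, 43 came from the cortex library. Xcr1 was found in 0 of 99 pDCs, which allows a share of up to 3.03% of cells with a UMI.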
